A study of Gallus gallus with 20 samples.

Results

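Aquaporins were measured in 1 RNA-seq library of adult chicken (Gallus gallus) kidney. Members were the genes whose row name carries AQP followed by digits, which gave 9 of the 19650 genes with a row: AQP2, AQP3, AQP4, AQP5, AQP8, AQP9, AQP10, AQP11 and AQP12A. AQP12A has a letter after its digits and was kept. AQP1, the water channel of the proximal tubule in mammals, and AQP7, a glycerol channel of the same segment in mammals, were not analysed here, so no statement below covers the whole family. The series profiled kidney and testis in 20 samples to study piRNAs of a somatic organ. The other 19 are small RNA libraries from kidney or testis, some of them oxidized with periodate or made from immunoprecipitated PIWI proteins, and were not analysed here. The kidney RNA came from an adult bird, and the labels give neither its sex nor its water balance. With 1 library there is no replicate, and no difference was tested between samples.

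Aquaporins are membrane proteins that assemble as tetramers in which each subunit has its own pore. The water-selective members let water follow an osmotic gradient, the aquaglyceroporins also pass glycerol and other small uncharged solutes, and the unorthodox members AQP11 and AQP12A are intracellular. In the collecting duct of mammals the antidiuretic hormone acts through its receptor and cyclic AMP to bring vesicles that carry AQP2 to the apical membrane, and water leaves the cell through AQP3 and AQP4 on the other side. The hormone with this role in birds is arginine vasotocin.

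The library held 21832272 estimated reads over 79570 rows. Levels are in TPM, the length-corrected abundance scaled to a fixed total, and each gene's level is the sum over its rows. Intervals are exact 95% intervals and cover counting error only. Of the markers of kidney tubules, all 6 measured proximal tubule genes, of 12 listed, reached 1 TPM, with a median of 2305 TPM. Among principal cell markers 9 of 10 did, with a median of 36.6 TPM. The share over all genes with a row was 51.4%, with a median of 1.21 TPM. Over genes with a symbol other than a locus number it was 70.5%, with a median of 6.04 TPM. In whole tissue, few cells with much of an RNA and many cells with little of it cannot be told apart. Unnamed assembled transcripts held 25.9% of the library's reads, and any aquaporin reads among them are not in the levels below.

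AQP2, the water channel moved by the antidiuretic hormone, had the highest aquaporin level at 294 TPM from 11695 reads (288.7 to 299 TPM). It ranked 187 among the 19650 genes, above 99.0% of them. AQP11, a channel of the endoplasmic reticulum whose loss causes cystic kidneys in mice, stood at 73.2 TPM from 2665 reads (70.5 to 76.1 TPM). AQP3, the basolateral aquaglyceroporin of principal cells in mammals, stood at 38.8 TPM from 1356 reads (36.7 to 40.9 TPM). These levels placed AQP11 above 95.7% of genes and AQP3 above 91.5%.

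AQP9, a broad solute and glycerol channel best known from liver, stood at 18.1 TPM from 1229 reads (17.1 to 19.1 TPM). AQP4, the other basolateral water channel of principal cells in mammals and the main one of brain astrocytes, stood at 4.49 TPM from 326 reads (4.01 to 5.001 TPM). AQP4 lay near the middle of the table, above 61.8% of all genes but above only 45.1% of the 12681 genes with a symbol other than a locus number.

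The remaining 4 aquaporins drew 12 reads in all. AQP5, a channel of secretory glands in mammals, had 5 reads and stood at 0.236 TPM (0.0765 to 0.550). AQP12A, the counterpart of a channel of the exocrine pancreas in mammals, had 4 reads and stood at 0.193 TPM (0.0525 to 0.493). AQP10, an intestinal aquaglyceroporin in humans, had 2 reads and stood at 0.117 TPM (0.0142 to 0.423). AQP8, which passes water and ammonia, had 1 read and stood at 0.0301 TPM (0.000761 to 0.167). All 4 intervals ended below 1 TPM.

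**Figure D1:**
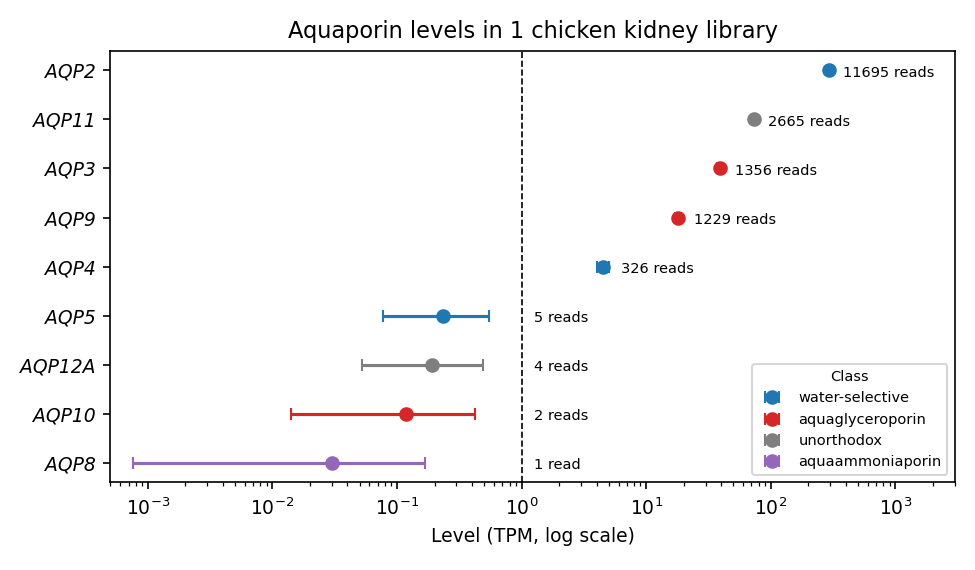
Level of each of the 9 aquaporins in TPM on a log axis, with the exact 95% counting interval as a bar, the estimated reads beside it and the class as colour. The dashed line marks 1 TPM: AQP2, AQP11, AQP3, AQP9 and AQP4 lie above it at 4.49 to 294 TPM, and the other 4 lie below it at 0.0301 to 0.236 TPM.

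Detection required 1 TPM and 3 reads. By this rule 5 of the 9 aquaporins were detected, where the background over all genes with a row was 51.4% and that over genes with a symbol other than a locus number was 70.5%. The count is thus near the 51.4% over all genes and below the 70.5% over genes with such a symbol. With 9 genes, and AQP1 and AQP7 not analysed, it cannot show whether the family departs from either background. The median aquaporin, AQP4 at 4.49 TPM, stood beside medians of 1.21 TPM over all genes and 6.04 TPM over genes with such a symbol. The spread within the family was wide, from AQP8 to AQP2.

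The order of the 5 detected aquaporins held beyond counting error, but the intervals leave out the error of dividing reads among transcripts. AQP2 was 4.01-fold (3.85 to 4.19) above AQP11, and AQP11 was 1.89-fold (1.77 to 2.02) above AQP3. Both ratios depend on how the reads of AQP11 were divided between rows of 1584 and 5021 bases. That division was not tested. AQP3 was 2.15-fold (1.99 to 2.32) above AQP9, and AQP9 was 4.03-fold (3.56 to 4.56) above AQP4. AQP4 was 19.0-fold (8.07 to 59.0) above AQP5 per length and 65.2-fold in reads. Below that point no order could be read: in all 6 pairs among AQP5, AQP12A, AQP10 and AQP8 the interval of the ratio included 1. AQP5 to AQP8, the pair with the highest and lowest values, had a ratio of 7.84 (0.878 to 371).

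AQP3 and AQP9 lay closer in reads than per length. Their reads differed by a factor of 1.10, with 1356 for AQP3 on a row of 2408 bases and 1229 for AQP9, mainly on a row of 4475 bases. Per length, AQP3 stood 2.15-fold higher. Against the channels of the opposite membrane in mammals, AQP2 was 7.58-fold (7.17 to 8.02) above AQP3 and 65.5-fold (58.7 to 73.4) above AQP4, and AQP3 was 8.65-fold (7.65 to 9.79) above AQP4. In reads, without length correction, these ratios were 8.62, 35.9 and 4.16.

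By class, the measured water-selective genes AQP2, AQP4 and AQP5 held 69.6% of the family's summed level of 429 TPM. AQP2 alone held 68.5%. The aquaglyceroporins AQP3, AQP9 and AQP10 held 13.3%, and AQP11 and AQP12A held 17.1%, nearly all of it from AQP11. Each of these classes had 1 member that was not detected, namely AQP5, AQP10 and AQP12A. AQP8, which has a class of its own, was not detected either. All 9 genes together drew 0.0792% of the library's reads.

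AQP2 and AQP5 are direct neighbours in the RefSeq gene table of the GRCg7b assembly, and they were the highest and among the lowest of the family. AQP2 was 1247-fold (534 to 3842) above AQP5 per length and 2339-fold in reads. FAIM2, the gene on the other side of AQP2 in that table, stood at 10.2 TPM, and AQP2 was 28.8-fold (26.5 to 31.5) above it. How reads shared by AQP2 and AQP5 would be split is not given in the table. The 5 reads of AQP5 were a whole number.

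Of the 18 aquaporin transcripts in the table, 15 had reads and 17 had a coding identifier. Intervals of transcript shares and ratios, here and below, cover counting error only. They leave out the error of dividing shared reads among the transcripts of a gene. For AQP2, the transcript of 3350 bases stood at 218 TPM from 10884 reads, and the one of 875 bases at 75.8 TPM from 811 reads. The long transcript therefore held 93.1% of the gene's reads (92.6 to 93.5) but 74.2% of its TPM. Per length the long transcript was 2.88-fold (2.68 to 3.10) above the short one.

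AQP11 was the detected aquaporin whose leading transcript depended on the unit. Its transcript of 1584 bases stood at 50.4 TPM from 1104 reads, and its transcript of 5021 bases at 18.8 TPM from 1438 reads. The short one held 68.8% of TPM and 41.4% of reads (39.5 to 43.3), and the long one 25.7% and 54.0% (52.0 to 55.9). Per length the short transcript was 2.67-fold (2.47 to 2.89) above the long one. The remaining AQP11 transcript has 2117 bases and an identifier of a non-coding RNA, and it drew 122 reads, 4.59% of the gene's reads. The table does not show where the 3 transcripts differ, and these intervals leave out the error of dividing reads among them.

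AQP9 and AQP4 each rested on 1 main transcript. The AQP9 transcript of 4475 bases held 91.0% of TPM at 16.4 TPM, while those of 4861 and 4534 bases stood at 0.986 and 0.643 TPM from 72.7 and 44.1 reads. The AQP4 transcript of 5049 bases held 91.9% of TPM at 4.12 TPM from 316 reads, and the one of 1867 bases drew 9.63 reads at 0.365 TPM. In both genes the leading transcript was the same by TPM and by reads.

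AQP3, AQP5, AQP8 and AQP12A had a single row each, so no isoform share exists for them. AQP10 had 4 rows of 1279 to 1306 bases, and its 2 reads were both assigned to 1 of the rows of 1279 bases. On the other 3 rows, 3 reads correspond to 0.171 to 0.175 TPM.

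**Figure D2:**
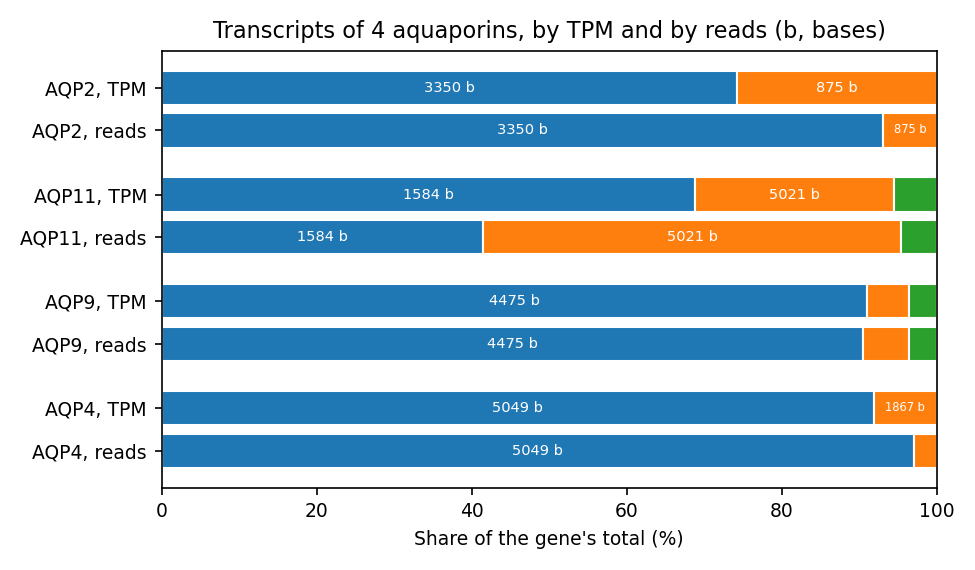
Share of each gene's TPM (upper bar of a pair) and of its reads (lower bar) held by each transcript of AQP2, AQP11, AQP9 and AQP4, in percent, ordered by TPM; transcript lengths in bases are written in the larger pieces. In AQP11 the transcript of 1584 bases holds 68.8% of TPM but 41.4% of reads, whereas in AQP9 and AQP4 a single transcript holds over 90% of both.

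Read totals give a partial view of sharing between rows. The total over all AQP9 transcripts was 1229 and that over all AQP4 transcripts 326, both within 0.01 of a whole number, although the reads of their single transcripts were not. The totals of AQP2, AQP11 and AQP3 were not whole. AQP3 has only 1 row, and a total that is not whole arises where Salmon divides reads with other rows, here rows of another name. Among single-row genes with at least 100 reads, 59.1% had a total that was not whole, so AQP3 was no exception in this table.

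The transcript models differ between annotations. Of the 18 transcripts, 13 had the same accession, apart from its version, in the RefSeq table of GRCg7b. These 13 carried 34.1% of the family's reads. The 5 others included the AQP2 transcript of 3350 bases and the AQP4 transcript of 5049 bases, which carried most reads of their genes.

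Genes that act on AQP2 in the collecting duct were measured beside it, from lists chosen with earlier results of these data known. Of 27 listed genes of vasotocin reception and cyclic AMP signalling, 23 had a row and 20 passed the detection rule, at a median of 9.43 TPM. This count, like those of the lists below, is to be read beside a background. Of genes with a symbol other than a locus number 70.5% passed, and of all genes with a row 51.4%. AVPR2, in mammals the receptor through which the hormone moves AQP2, was not detected here. It stood at 0.170 TPM from 13 reads (0.0903 to 0.290), all on a row of 5041 bases with a non-coding identifier. Its coding row of 1113 bases had none. Whether the chicken gene of this name has the mammalian role was not tested. AVPR1A, a receptor of the same hormone family, stood at 9.43 TPM from 158 reads (8.02 to 11.0), and OXTR at 1.10 TPM from 17 reads (0.640 to 1.76). AVPR1B drew none, and 3 reads on its row correspond to 0.176 TPM. AQP2 thus stood 31.2-fold (26.6 to 36.7) above AVPR1A, the highest of the 4 measured receptors, and 74.0-fold in reads.

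Downstream of the receptors, GNAS, the stimulatory G protein subunit, stood at 52.3 TPM. PRKAR1A, a regulatory subunit of protein kinase A, had the highest level of the list at 118 TPM, and AKAP13, a scaffold that binds the kinase, stood at 39.8 TPM. The catalytic subunits PRKACA and PRKACB stood at 29.5 and 30.0 TPM. The adenylyl cyclase row named ADCY5 stood at 21.8 TPM, and its transcript is listed as ADCY6 in the table of GRCg7b. AQP2 lay above all 23 measured members.

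Of the genes of aquaporin vesicle traffic and turnover, 16 of 26 had a row and 14 of these passed the detection rule, at a median of 40.0 TPM. The background over genes with a symbol other than a locus number was 70.5%. Radixin (RDX), a linker of membranes to actin, stood at 239 TPM. RAB11A, a GTPase of recycling endosomes, stood at 190.3 TPM, the clathrin heavy chain CLTC at 181 TPM and the vesicle protein VAMP3 at 108 TPM. VAMP2, the vesicle protein best known from AQP2 vesicles in mammals, stood at 1.13 TPM (0.969 to 1.30), near the detection threshold. It drew 182 reads, so its low level is not one of few reads. VAMP3 drew 832, so the 2 genes lay closer in reads than per length. For VAMP2, 3 reads correspond to at most 0.0188 TPM, and for VAMP3 to 0.390 TPM. No read was assigned to the motor gene MYO5B, for which 3 reads correspond to 0.0367 TPM.

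All 15 measured transcription factors of the collecting duct list, of 17, passed the detection rule, beside the same background of 70.5%. Their median was 27.3 TPM. HNF4A, which is known mainly from the proximal tubule, led at 157 TPM, PAX2 stood at 118 TPM and TFCP2L1 at 64.9 TPM. GATA3, which marks the collecting duct lineage, stood at 26.9 TPM, and AQP3 was 1.44-fold (1.33 to 1.56) above it. NFAT5, the factor of the response to high salt, stood at 32.5 TPM.

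The osmotic response list had 7 of 8 measured genes detected, of 13 listed, beside the same background of 70.5%. Its median was 55.5 TPM. SORD, which converts the osmolyte sorbitol, stood at 404 TPM, the kinase SGK1 at 359 TPM, the taurine transporter SLC6A6 at 96.3 TPM and the inositol transporter SLC5A3 at 78.5 TPM. The betaine transporter SLC6A12 stood at 0.337 TPM from 28 reads and was the member not detected. The urea transporters SLC14A1 and SLC14A2 were not analysed here.

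Glycerol is the other cargo of AQP3 and AQP9. All 10 measured genes of glycerol metabolism, of 14 listed, passed the detection rule, at a median of 34.2 TPM. Of genes with a symbol other than a locus number 70.5% passed. The listed genes GK, GK2, GPD1 and GPAM were not analysed here. PCK1, an enzyme of gluconeogenesis and glyceroneogenesis that is also in the proximal tubule list, stood at 2908 TPM. FBP1, an enzyme of gluconeogenesis, stood at 919.6 TPM, AKR1A1 at 297 TPM and the monoglyceride lipase MGLL at 75.5 TPM. AQP3 lay below 5 of the 10 and AQP9 below 7.

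**Figure D3:**
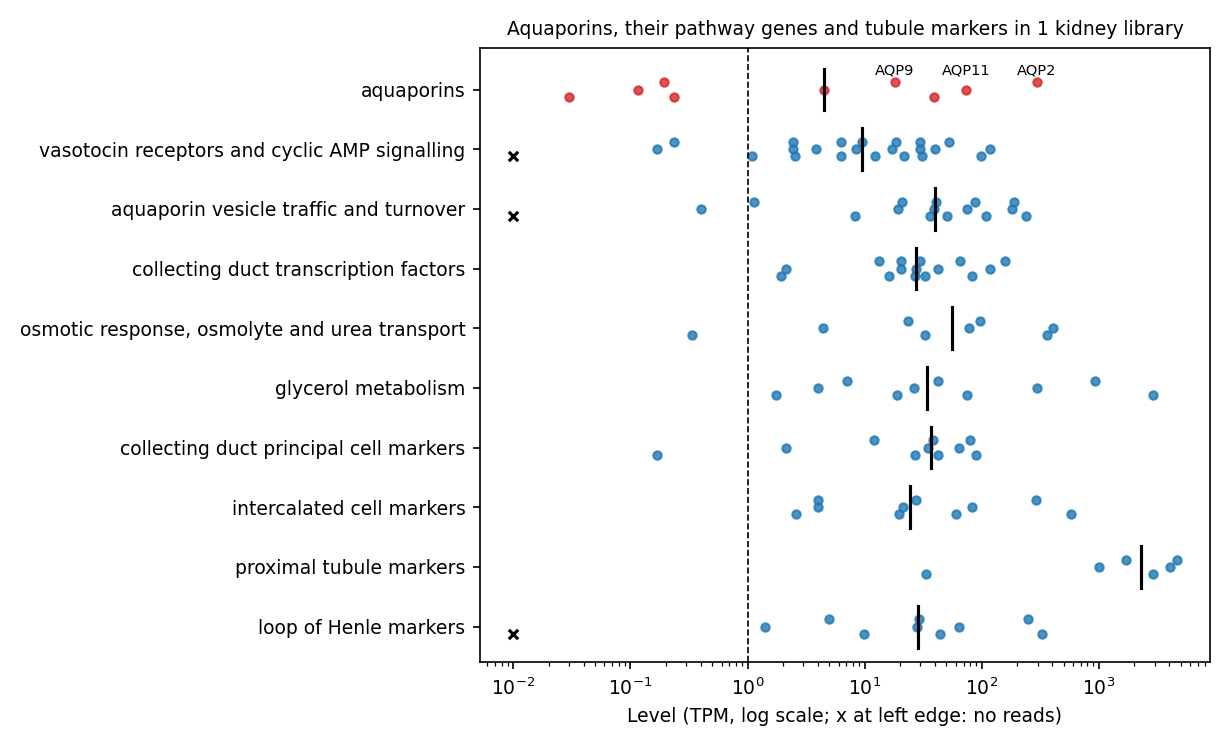
Level of each aquaporin (red) and of each measured member of the pathway and tubule marker lists (blue) in TPM on a log axis, with a black bar at each list's median and a cross at the left edge for genes with no reads. The dashed line marks 1 TPM; AQP2 at 294 TPM lies above every measured member of the vasotocin and principal cell lists, and the proximal tubule markers lie highest, at a median of 2305 TPM.

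Against markers of the segments, AQP2 stood above all 10 measured principal cell markers. It was 3.26-fold (3.17 to 3.35) above HSD11B2, the enzyme that protects the mineralocorticoid receptor from glucocorticoids, and 3.68-fold (3.55 to 3.82) above the sodium channel subunit SCNN1A. In reads these ratios were 1.11 and 2.92. KCNJ1, a potassium channel that is also in the loop of Henle list, and NR3C2, the mineralocorticoid receptor, stood at 64.1 and 42.6 TPM. AVPR2 was the principal cell marker not detected. The intercalated cell list had all 10 measured members detected, with a median of 24.3 TPM. Its count and that of the loop of Henle list stand beside the 70.5% of genes with a symbol other than a locus number. Per length, AQP2 and RHCG, the ammonia channel of that list, differed by less than counting error, with a ratio of 1.01 (0.984 to 1.05). In reads, AQP2 had 1.75 times as many as RHCG. The carbonic anhydrase CA2 stood higher than AQP2 at 580 TPM, but it drew 11349 reads and AQP2 drew 11695. The loop of Henle list had 9 of 10 detected, with a median of 28.6 TPM, and AQP2 was 1.17-fold (1.15 to 1.20) above its sodium-potassium-chloride cotransporter SLC12A1 per length but had 0.483 times its reads. CLDN10, a paracellular channel and the highest member of that list, stood at 329 TPM, and AQP2 was at 0.895 times its level (0.863 to 0.928) but had 3.06 times its reads. UMOD of that list had no reads. The order of AQP2 against RHCG and SLC12A1 depended on its short transcript. By its leading transcript alone AQP2 stood at 218 TPM, below the summed levels of SLC12A1 at 250 TPM and RHCG at 290 TPM.

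Markers of other cells were also measured, and their counts are to be read beside the 70.5% of genes with a symbol other than a locus number that passed the detection rule. All 10 measured endothelial markers passed the detection rule, and their median was 19.8 TPM. Among leukocyte markers 10 of 12 passed, and the median was 8.68 TPM. Among erythroid markers 5 of 6 passed, led by HBA1 at 486 TPM. Hepatocyte markers, of interest for AQP9, had 5 of 8 detected with a median of 5.10 TPM. TF, APOH, FGA and C3 stood at 76.6, 50.4, 8.57 and 5.96 TPM in that order, whereas ALB stood at 0.492 TPM and TTR had no reads. Astrocyte and neural markers, of interest for AQP4, had 2 of 10 detected with a median of 0.287 TPM. GJA1 stood at 5.21 TPM from 112 reads and SYT1 at 2.59 TPM from 173 reads, whereas GFAP stood at 0.177 TPM from 6 reads. Adipocyte markers had 6 of 8 detected with a median of 1.73 TPM, led by PPARG at 67.9 TPM. Skeletal muscle markers had 3 of 7 detected with a median of 0.791 TPM. ACTA1 stood at 10.2 TPM, MYL1 at 8.49 TPM and ACTN2 at 4.71 TPM, and MYH1E and MYOG had no reads. The part of these cells in any aquaporin level was not tested.

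Under most settings the values of the 5 detected aquaporins moved by more than counting error, but much of this was a common change of scale. Annotated length gave 1.59 to 1.69 times the deposited TPM, and each rescaling gave one factor for every gene. Reads scaled to library size are another unit. Without length correction AQP9 and AQP4, whose main transcripts are long, moved more than AQP2, AQP11 and AQP3. With the most abundant transcript alone AQP11 and AQP2 stood at 0.688 and 0.742 times their deposited level, and AQP3, with its single row, was the same. The order of the 5 genes was the same in each case, although the rescalings could not have changed it.

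**Figure D4:**
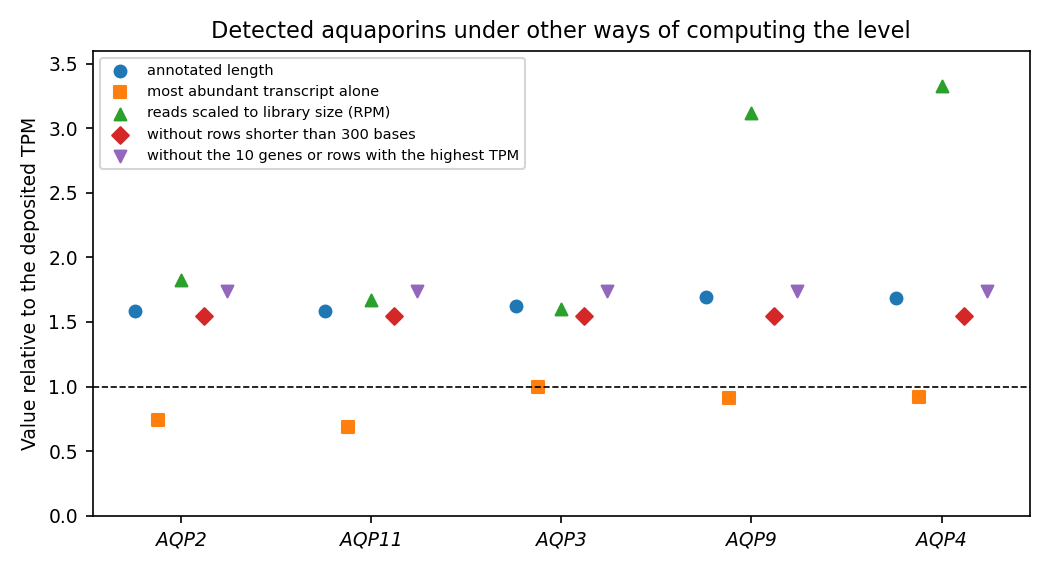
Value of the 5 detected aquaporins relative to the deposited TPM (dashed line at 1) under 5 other ways of computing the level, one symbol each. Rescaled values lie at 1.55 and 1.74 times for every gene, whereas reads scaled to library size (RPM), which ignore length, lie at 3.12 and 3.33 times for AQP9 and AQP4 and at 1.60 to 1.82 times for the others.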

How the data were processed

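Per the labels, total RNA was isolated with a miRNA kit and made into a TruSeq RNA library. The submitters' processing notes name Salmon and galGal6. Salmon's version, its library type setting and how the transcripts were assembled are not stated in these sources. The authors' TPM values sum to 1000000 over the table. The deposited estimated counts are reads that Salmon divides among rows sharing sequence, and they summed to 21832272. Annotated and effective lengths stand in the same table, per the file headers. Rows over 1000 bases had a median of 198.6 bases taken off.

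The members and 16 gene lists were chosen with earlier results of these data known. Row names gave gene symbols, and the RefSeq table of GRCg7b was used for names and gene order only. Listed genes without a row were not analysed here. All aquaporins were named, and other genes from the 4 highest members of a list or its members without reads, of which those bearing on an aquaporin are given. Some genes named by this rule are not reported here. Receptors, PRKACA, PRKACB, ADCY5, GATA3, NFAT5, VAMP2, SLC6A12, FAIM2, ALB and GFAP were added after their values were seen.

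Level intervals are exact Poisson, ratios exact conditional binomial and shares Clopper-Pearson, on reads rounded to whole numbers (scipy 1.17.1). Without molecular identifiers, reads are not independent molecules, and these intervals leave out the error of dividing shared reads. The interval step was tested, for levels and ratios of genes with a single row, on reads simulated as independent counts. That test assumes the counting error it checks and does not cover the division of shared reads. With 1 library no p-value was computed. No genome or sequence table was used here, so no sequence is printed.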

Additional observations from a re-analysis of the deposited data

How the results depend on the processing

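The order of all 9 aquaporins was the same under annotated length, the most abundant transcript alone, both rescalings, reads scaled to library size (RPM) and, chosen after seeing the data, without transcripts with a non-coding identifier. The summed aquaporin level of 429 TPM was 685 TPM with annotated length, 329 TPM for the most abundant transcript alone, 664 TPM without rows shorter than 300 bases, which held 35.4% of TPM, and 747 TPM without the 10 genes or rows with the highest TPM. In RPM it was 792. Both rescalings multiply every gene by one factor, so they could not change the order. Leaving out the non-coding identifier changed AQP11 alone. The places of AQP5, AQP12A, AQP10 and AQP8 lay within counting error, so their unchanged order carries no weight. The share of AQP2 was 66.4% for the most abundant transcripts and 67.7% by reads. The leading AQP2 transcript held 77.8% with annotated length and 93.1% by reads, that of AQP11 41.4% by reads and that of AQP4 97.0% by reads.

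The count of detected aquaporins was 5 under these settings other than RPM, where it was not computed, 7 at 0.1 TPM or with 3 reads alone, 5 at 0.5 TPM or with 10 reads, and 4 at 5 TPM. Of the 16 lists, 14 kept a count within 1.5 times at 0.1 TPM and 14 at 5 TPM. The exceptions were adipocyte, skeletal muscle and astrocyte and neural markers. Depth limits AQP5, AQP12A, AQP10 and AQP8, whose 1 to 5 reads show no order. No paired analysis was possible because only 1 library was analysed.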

Other observations

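Genes that lie next to the other detected aquaporins in the RefSeq table of GRCg7b were also measured. CLNS1A, beside AQP11, stood at 19.0 TPM, and the noncoding locus on its other side had 1 read at 0.0568 TPM. NOL6 and PINLYP, on the sides of AQP3, stood at 10.5 and 2.76 TPM. ALDH1A2, beside AQP9, stood at 2.12 TPM, and CHST9, beside AQP4, at 11.6 TPM. These neighbours were looked up after the aquaporin levels were seen. The other neighbours of AQP9 and AQP4 were not analysed here. In TPM, AQP4 was lower than CHST9, but AQP4 had 326 reads and CHST9 had 281. AQP11, AQP3 and AQP9 were higher than the neighbours named.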
